A study of Mus musculus with 3 samples.

Results

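The genes described here are 7 transcription factors of the skeletal muscle programme: the paired-box factors Pax3 and Pax7, the myogenic regulatory factors Myf5, Myod1, Myog and Myf6, and Mef2c, a MEF2 family factor that works beside them. They were taken by name from a list, with no threshold on a measured value, and are 7 of 21593 protein-coding genes counted in the same way. The data are single-nucleus chromatin accessibility profiles (snATAC-seq), in which the transposase Tn5 inserts adapters into open DNA inside nuclei. Embryos of wild-type (WT) C57BL/6JRj mice were sampled at stages E12.5, E13.5 and E15.5 (days of embryonic development), with 1 library per stage. Nuclei were released from a few thick frozen sections per stage, from littermates of embryos used for spatial maps, so a library holds the tissues that those sections crossed, and how many embryos contributed is not stated. The authors' deposited cell table assigns each nucleus to a numbered cluster, and cluster 10 was compared with the rest.

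Skeletal muscle of the trunk and limbs comes from the somites, where Pax3 and Pax7 mark the progenitors of the lineage. Myf5 and Myod1 then commit cells to the muscle fate, Myog drives their differentiation and fusion into fibres, and Myf6 acts in determination and again late in differentiation. All 4 myogenic regulatory factors are basic helix-loop-helix (bHLH) proteins that pair with E proteins and bind E-boxes, written CANNTG, while MEF2 proteins bind an AT-rich motif and act on many of the same genes. Pax3 and Pax7 are also known for their roles in the dorsal neural tube and the neural crest.

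The libraries held 9402554 (E12.5), 87687839 (E13.5) and 53120243 (E15.5) unique fragments, and the cell table lists 153, 970 and 756 nuclei. Cluster 10 had 2, 49 and 24 nuclei, and the rest had 81, 760 and 534 nuclei, without clusters 2 and 4, whose nuclei are shallow. Of 13 skeletal muscle markers that are not among the 7 genes, 11 reached 1.5 times the level of the other clusters at E13.5 and again at E15.5, and cluster 10 is called muscle-like from these alone. Actc1, the cardiac actin that embryonic skeletal muscle also uses, led its genes. By their markers, clusters 0 and 6 are called neuron-like (6 and 4 of 6 markers), 1 mesenchyme-like (7 of 8), 9 neural progenitor-like (7 of 7), and 5 and 11 erythroid-like (7 and 6 of 7). Clusters 3, 7 and 8 are given by number, with 4 of 8 mesenchyme, 4 of 6 epithelial and 4 of 5 white blood cell markers. Cluster 8 also had 3 of 6 endothelial and 2 of 5 liver markers, and cluster 6 had 3 of 7 neural progenitor markers. Nuclei of cluster 10 had median fragments of 80653.5, 92857 and 84211.5, beside 89063, 72763 and 62736.5 in the rest, so they were deeper at E13.5 and E15.5 but not at E12.5. None of them shared fragments with another barcode at the level used to call barcodes linked, and 1 of 1878 barcode sequences occurred in more than 1 library.

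Accessibility is given as CPM, the unique fragments overlapping a window, scaled to 1000000 fragments that overlap the bodies of all counted genes in that cluster and library. There were 3 windows: the gene body with the 2 kb upstream of it, the promoter from 1000 bp before to 100 bp after the start, and the flanks of 50 kb on either side of the first window. Because the clusters were made from fragments of these nuclei, cluster 10 against the rest is a description and carries no test. Intervals are exact 95% intervals for counting error only, and fragments of a nucleus are not independent samples of a stage. Levels follow the length of a window, so the 7 genes are not ranked against each other.

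Myod1, Myog and Myf5 were open over their bodies mainly in cluster 10, at 6.15 to 8.84 times the rest in the 2 deep libraries. Myf6 and Pax7 were between 2.49 and 3.35 times the rest, whereas Pax3 and Mef2c were between 0.842 and 1.13 times the rest. At least 2-fold higher in both E13.5 and E15.5 were therefore 5 of the 7 genes, where 1.30% of the 21063 genes with a fragment in the rest reached this. Among genes with at least 100 fragments in each library the count was 4 of 6, beside 1.17% of 17494 genes, because Myf6 was too sparse at E15.5 to enter. Without the deepest 10 percent of nuclei the count was 4 of 7, since the Myf6 ratio at E15.5 was then 1.26. Cluster 10 was the highest of the clusters in both libraries for the same 5 genes, beside 3.24% of all genes, and for 4 of 6 genes past the minimum, beside 3.60%. The median gene had a ratio of 0.932 at E13.5 and 0.919 at E15.5.

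**Figure D1:**
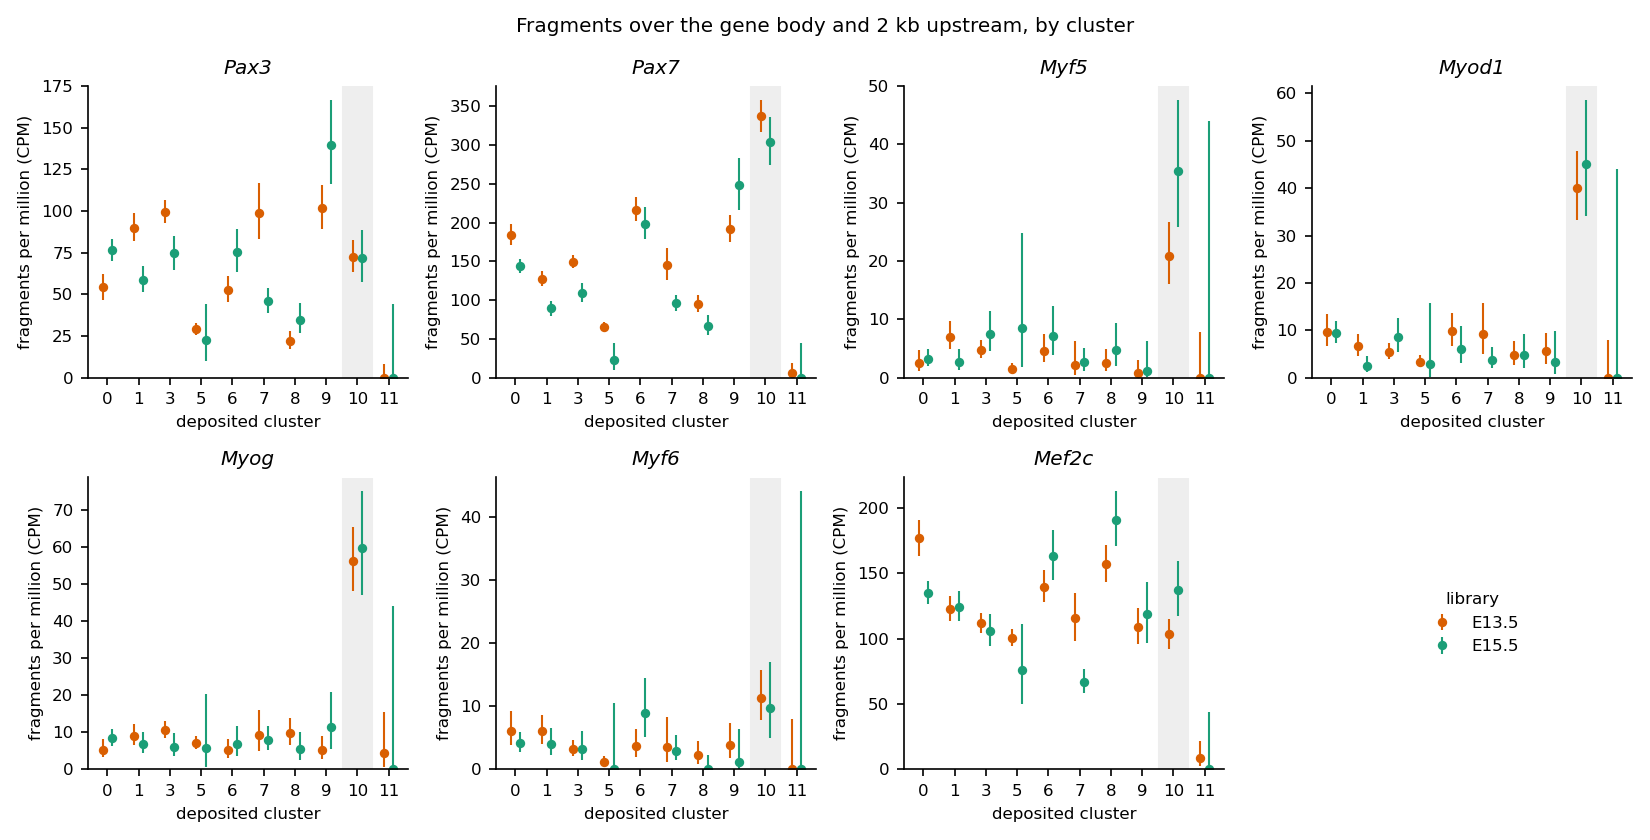
CPM over the gene body and the 2 kb upstream (vertical axis, from 0) in each deposited cluster with at least 5 nuclei (horizontal axis) at E13.5 (orange) and E15.5 (green). Points are the sum over nuclei of a cluster, bars are exact 95% Poisson intervals and the grey band marks cluster 10. Myf5, Myod1 and Myog stand out in cluster 10, from 20.8 to 59.7 CPM, while Pax3 is highest in cluster 9 and Mef2c in clusters 0 and 8.

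Pax3 (ENSMUSG00000004872.15, chr1:78101267-78197134 of mm10, minus strand), the progenitor factor that also patterns the dorsal neural tube, was not raised in cluster 10. At E13.5 its body had 219 fragments or 72.4 CPM in cluster 10 and 64.2 CPM in the rest, a ratio of 1.13 (95% interval 0.977 to 1.30). At E15.5 there were 89 fragments or 71.8 CPM against 66.3 CPM, a ratio of 1.08 (0.863 to 1.34). Both intervals include 1. The neural progenitor-like cluster 9 was highest, at 101.8 CPM (89.3 to 115.5) at E13.5, where clusters 3 and 7 at 99.5 and 99.04 CPM and the mesenchyme-like cluster 1 at 89.9 CPM (81.8 to 98.6) could not be told from it. At E15.5 cluster 9 stood apart at 139.9 CPM (116.3 to 166.8), followed by cluster 0 at 76.4 CPM (69.98 to 83.3). The lowest levels were 22.2 CPM in cluster 8 at E13.5 and 22.6 CPM in cluster 5 at E15.5, apart from cluster 11, which had no fragment there. Its promoter had only 6 and 3 fragments in cluster 10, with ratios of 0.953 (0.339 to 2.17) and 0.795 (0.160 to 2.43). The flanks, which hold no other protein-coding gene, gave 1.04 (0.886 to 1.22) and 0.874 (0.668 to 1.13).

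Pax7 (ENSMUSG00000028736.13, chr4:139737062-139833528, minus strand), which marks muscle progenitors and later the satellite cells of muscle, was higher in cluster 10 than in the rest in both libraries. Its body had 1019 fragments or 336.9 CPM in cluster 10 at E13.5, against 132.3 CPM in the rest, a ratio of 2.55 (2.38 to 2.73). At E15.5 it had 377 fragments or 304.05 CPM against 122.4 CPM, a ratio of 2.49 (2.22 to 2.77). The next cluster at E13.5 was the neuron-like cluster 6, at 216.8 CPM (201.7 to 232.8), which stood apart from cluster 10. At E15.5 the next was cluster 9, at 248.2 CPM (216.4 to 283.2), and its interval overlapped that of cluster 10 (274.1 to 336.3). The erythroid-like cluster 5 had 65.6 and 22.6 CPM. The promoter ratios were 2.79 (1.75 to 4.31) and 3.43 (1.55 to 6.83), from 26 and 10 fragments. Over this promoter cluster 10 could not be told from cluster 7 at E13.5, at 8.60 CPM (5.62 to 12.6) against 7.13 CPM (3.42 to 13.1). At E15.5 its 8.06 CPM (3.87 to 14.8) overlapped the 3.55 CPM (1.70 to 6.53) of cluster 3. With both annotated starts the promoter ratios were 4.38 (3.21 to 5.91) and 4.88 (2.97 to 7.74), from 61 and 24 fragments. Those of the flanks were 3.11 (2.88 to 3.34) and 2.41 (2.12 to 2.74). The flanks hold no other protein-coding gene, and in both libraries the intervals of this ratio for Pax7 and Pax3 did not overlap.

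The region of the Pax7 locus with the most insertions at E13.5 was not at the promoter but past the far end of the gene. A 500 bp bin at 135.8 kb from the start, intergenic and 44.2 kb from the start of Tas1r2, held 116 Tn5 insertions (fragment ends) in cluster 10 at E13.5, from 30 of 49 nuclei. Scaled to 1000000 insertions of the cluster (IPM), that was 11.5 IPM (9.51 to 13.8), 14.6 times the rest, and at E15.5 it was 6.85 IPM (4.55 to 9.91), 13.9 times the rest (8.17 to 23.4). Both ends of a fragment can fall in a bin, so intervals on insertions are too narrow. Among the other clusters the highest level was 1.30 IPM, in cluster 7 at E13.5. An intron bin at 62.3 kb, named after its value was seen, had 93 and 44 insertions, at 17.4 and 23.8 times the rest, and was the higher of these bins at E15.5 with 10.8 IPM. The 300 bases with the most insertions in the bin at 135.8 kb are shown because that bin was the highest of Pax7 at E13.5 by this choice. They are chr4:139697693-139697992 of mm10, plus strand, and the capitals mark the E-boxes CAGCTG and CACCTG.
Pax7, downstream region: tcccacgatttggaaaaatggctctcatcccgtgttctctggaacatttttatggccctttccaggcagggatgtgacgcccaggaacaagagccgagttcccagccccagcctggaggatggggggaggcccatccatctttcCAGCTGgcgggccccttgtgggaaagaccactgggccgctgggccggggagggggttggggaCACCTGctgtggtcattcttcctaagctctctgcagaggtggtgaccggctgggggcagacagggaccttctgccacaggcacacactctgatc

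Myf5 (ENSMUSG00000000435.1, chr10:107482908-107486134, minus strand), the first of the bHLH factors to act in the somite, had 63 body fragments or 20.8 CPM in cluster 10 at E13.5, against 3.38 CPM in the rest. The ratio was 6.15 (4.47 to 8.41). At E15.5 there were 44 fragments or 35.5 CPM against 4.01 CPM, a ratio of 8.84 (6.01 to 12.8). The next was the mesenchyme-like cluster 1 at E13.5, at 7.01 CPM (4.88 to 9.74), and cluster 5 at E15.5, at 8.46 CPM from 3 fragments, and cluster 10 stood apart from both. Cluster 11 had no fragment in 7 nuclei at E15.5, which allows up to 44.01 CPM. The promoter was 10.2 times (6.29 to 16.4) and 11.9 times (6.26 to 22.01) the rest, on 35 and 19 fragments. Flank ratios were lower, at 2.26 (1.96 to 2.58) and 1.82 (1.45 to 2.26), and these flanks hold Myf6 and part of Ptprq, so they are not separate from those of Myf6. With other protein-coding genes removed, the flank ratios were 2.20 and 1.63. The highest chosen bin at E13.5 lay just before the gene, at -0.617 kb, with 42 insertions in cluster 10 at E13.5, from 16 of 49 nuclei. Its ratios were 14.4 at E13.5 and 11.9 (6.18 to 22.4) at E15.5. Its densest 300 bases are shown as the open region next to the start of this gene (chr10:107486699-107486998, plus strand, capitals mark CAGGTG).
Myf5, upstream of the start: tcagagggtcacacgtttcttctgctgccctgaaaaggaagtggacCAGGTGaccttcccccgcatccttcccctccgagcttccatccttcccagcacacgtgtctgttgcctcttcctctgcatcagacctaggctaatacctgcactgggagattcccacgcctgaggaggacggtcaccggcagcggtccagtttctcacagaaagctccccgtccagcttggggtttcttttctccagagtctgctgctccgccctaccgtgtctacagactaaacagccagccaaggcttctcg

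Myod1 (ENSMUSG00000009471.4, chr7:46376474-46379099, plus strand), the determination factor able to turn other cells into muscle, had 121 body fragments or 40.01 CPM in cluster 10 at E13.5, against 5.94 CPM in the rest, a ratio of 6.74 (5.35 to 8.46). At E15.5 it had 56 fragments or 45.2 CPM against 6.14 CPM, a ratio of 7.36 (5.29 to 10.1). All other clusters lay below 10 CPM in both libraries, the highest being cluster 6 at E13.5 (9.74 CPM, 6.74 to 13.6) and cluster 0 at E15.5 (9.39 CPM, 7.23 to 11.98). The promoter was 11.4 times (7.54 to 17.4) and 15.2 times (8.61 to 26.5) the rest, and 6.92 and 7.84 times when the window ran 1000 bp to either side of the start. In the flanks the ratios were 3.18 (2.94 to 3.44) and 3.57 (3.21 to 3.97), and the only other protein-coding gene there is Kcnc1, a potassium channel. Without Kcnc1 the flank ratios were 5.22 and 7.21, and with flanks of 20 kb they were 2.44 and 2.34.

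Upstream of Myod1 the highest chosen bin held more insertions than the promoter bin in both libraries, but counting error does not separate these bins. The bin at -34.7 kb, intergenic, held 89 insertions in cluster 10 at E13.5, from 27 of 49 nuclei, or 8.83 IPM (7.09 to 10.9), at 59.2 times the rest. At E15.5 it held 51 insertions from 16 of 24 nuclei, or 12.48 IPM (9.30 to 16.4), at 101.2 times the rest (49.4 to 233.9). No other cluster passed 0.675 IPM in this bin in either library, but at E13.5 the bin was chosen for a high ratio over the rest. Further bins between this one and the gene were named after their values were seen. The bin at -27.2 kb had ratios of 29.3 and 52.5, that at -23.2 kb 17.8 and 68.2, and that at -10.2 kb 63.3 and 12.99. The promoter bin at -0.223 kb had 78 and 39 insertions, with ratios of 15.3 and 14.8. The sequence of the highest bin is given because it has the largest contrast of the regions named by rule (chr7:46341530-46341829, plus strand, capitals mark CAGCTG).
Myod1, upstream region: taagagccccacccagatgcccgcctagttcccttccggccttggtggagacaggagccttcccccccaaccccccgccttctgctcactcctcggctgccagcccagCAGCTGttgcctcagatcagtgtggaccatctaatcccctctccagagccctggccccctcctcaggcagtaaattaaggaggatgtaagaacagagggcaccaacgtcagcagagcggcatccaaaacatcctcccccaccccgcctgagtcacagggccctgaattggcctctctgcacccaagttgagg

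Myog (ENSMUSG00000026459.5, chr1:134289989-134292548, plus strand), the factor that drives differentiation, was open at its promoter mainly in cluster 10. The promoter had 89 fragments or 29.4 CPM in cluster 10 at E13.5 against 2.16 CPM, a ratio of 13.6 (9.92 to 18.7), and 48 fragments or 38.7 CPM at E15.5 against 1.66 CPM, a ratio of 23.3 (14.8 to 36.96), with intervals that overlap those of Myod1 and Myf5. Over the body there were 170 and 74 fragments, or 56.2 and 59.7 CPM, with ratios of 7.16 (5.88 to 8.69) and 8.08 (6.05 to 10.7). The next clusters were 3 at E13.5, at 10.5 CPM (8.39 to 13.06), and 9 at E15.5, at 11.3 CPM (5.41 to 20.7), and cluster 10 stood apart from both. The flanks, which hold part of Ppfia4, a gene for a liprin scaffold protein, were 2.93 (2.74 to 3.13) and 3.35 (3.05 to 3.68) times the rest.

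The highest chosen bin at Myog at E13.5 was the promoter bin at -0.238 kb, with 130 insertions from 32 of 49 nuclei at E13.5 and 62 from 16 of 24 at E15.5, at 16.7 and 31.6 times the rest (20.6 to 49.4 at E15.5). Nearly as strong was a bin 17.8 kb past the start, in an intron of Ppfia4, with 113 insertions from 27 nuclei and 62 from 13 nuclei, at 30.1 and 42.6 times the rest (26.5 to 70.2). A bin at -44.7 kb, named after its value was seen and closer to the start of Adora1 than to that of Myog, had 111 and 77 insertions and ratios of 13.8 and 24.6. The promoter and intron sequences follow because these were the highest bins at E13.5 by that choice, inside and outside promoters. They are chr1:134289611-134289910 and chr1:134307537-134307836, both plus strand. Capitals mark CAGCTG and CAGGTG, which overlap or abut in places.
Myog, promoter: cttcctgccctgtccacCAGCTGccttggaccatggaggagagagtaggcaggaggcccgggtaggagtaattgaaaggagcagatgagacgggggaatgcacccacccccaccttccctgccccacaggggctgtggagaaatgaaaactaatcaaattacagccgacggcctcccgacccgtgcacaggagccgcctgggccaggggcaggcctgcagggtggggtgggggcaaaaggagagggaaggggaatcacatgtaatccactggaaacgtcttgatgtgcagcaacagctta
Myog, region in Ppfia4: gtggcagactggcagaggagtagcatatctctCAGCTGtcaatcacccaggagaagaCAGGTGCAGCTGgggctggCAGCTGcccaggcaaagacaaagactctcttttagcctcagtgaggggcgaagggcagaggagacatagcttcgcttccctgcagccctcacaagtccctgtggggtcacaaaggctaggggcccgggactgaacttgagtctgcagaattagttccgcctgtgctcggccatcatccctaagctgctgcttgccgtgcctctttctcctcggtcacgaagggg

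Myf6 (ENSMUSG00000035923.4, chr10:107492853-107494737, minus strand), also called MRF4, was the sparsest gene. It had 34 body fragments or 11.2 CPM in cluster 10 at E13.5 against 3.36 CPM, a ratio of 3.35 (2.22 to 4.93), and 12 fragments or 9.68 CPM at E15.5 against 3.64 CPM, a ratio of 2.66 (1.32 to 4.90), or 1.26 without the deepest 10 percent of nuclei. Cluster 10 ranked highest in both libraries but could not be told from the next, which was cluster 0 at E13.5 (6.05 CPM, 3.79 to 9.15) and cluster 6 at E15.5 (8.88 CPM, 5.07 to 14.4). The promoter had only 5 and 1 fragments, and its ratios of 2.13 (0.642 to 5.58) and 1.59 (0.0369 to 10.9) include 1. With 1000 bp on either side of the start they were 3.28 and 2.50. Its start lies 8603 bp from that of Myf5, and its flanks, at 2.77 (2.43 to 3.14) and 2.63 (2.16 to 3.19), contain that gene. Without other protein-coding genes they were at 2.30 and 1.65. The highest chosen bin at E13.5, at -22.0 kb, had 23 insertions from 8 of 49 nuclei at E13.5, 11.5 times the rest, and 5 insertions from 3 of 24 nuclei at E15.5, 4.70 times the rest (1.37 to 13.02). There cluster 6 had the higher value at E15.5, at 1.60 IPM (0.769 to 2.95), but could not be told from cluster 10 at 1.22 IPM. The sequence of this bin is shown as the highest at Myf6 among bins chosen for contrast (chr10:107516614-107516913, plus strand, capitals mark CAGCTG).
Myf6, upstream region: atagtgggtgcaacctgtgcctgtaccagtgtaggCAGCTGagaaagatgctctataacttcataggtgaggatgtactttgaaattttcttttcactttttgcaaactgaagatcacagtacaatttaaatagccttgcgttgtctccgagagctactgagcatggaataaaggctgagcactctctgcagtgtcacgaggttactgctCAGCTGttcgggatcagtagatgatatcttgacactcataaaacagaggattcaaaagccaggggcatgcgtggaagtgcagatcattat

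Mef2c (ENSMUSG00000005583.16, chr13:83504034-83667080, plus strand), which also acts in heart, vessels, blood and neurons, had at least 67.04 CPM over its body in every cluster but 11. Over its body cluster 10 had 312 fragments or 103.2 CPM at E13.5 against 122.5 CPM, a ratio of 0.842 (0.748 to 0.945), and 170 fragments or 137.1 CPM at E15.5 against 123.1 CPM, a ratio of 1.11 (0.948 to 1.30). The highest levels were in cluster 0 at E13.5 (176.7 CPM, 163.3 to 190.9) and cluster 8 at E15.5 (190.8 CPM, 170.5 to 212.7), with clusters 8 and 6 next in turn and overlapping. Flank ratios were 1.07 (0.918 to 1.25) and 1.10 (0.858 to 1.40). The body window therefore did not set cluster 10 apart.

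The starts of Mef2c behaved differently from each other. Its 27 annotated starts form 9 groups, each more than 1000 bp from the next. The first group, with 3 starts at the upstream end of the gene, had 14 fragments in cluster 10 at E13.5 and 6 at E15.5, at 4.77 (2.37 to 9.09) and 6.99 (2.22 to 19.1) times the rest, and cluster 10 was the highest cluster in both. The second group, with 11 starts from 19.4 kb on, had 13 and 10 fragments, at 0.349 (0.184 to 0.603) and 0.499 (0.237 to 0.930) times the rest, and was highest in clusters 7 and 8. The fourth, at 68.3 kb, had 0 and 1 fragments in cluster 10, where 3 fragments would be 0.992 and 2.42 CPM, against 12.2 and 16.5 CPM in cluster 8. With the single promoter at the upstream end the ratios were 3.35 (1.41 to 7.19) and 4.77 (0.854 to 18.05), and with every annotated start together they were 0.593 and 0.652. The bin at 0.217 kb, on the first exon, was the highest of the chosen Mef2c bins in cluster 10 at E13.5, with 27 insertions from 12 of 49 nuclei and 13 from 6 of 24, at 12.9 and 14.5 times the rest (6.42 to 32.2). Of 15 bins at this locus with at least 10 insertions only 4 were chosen, and the others were not ranked. The starts were compared in this way after the promoter ratio had been seen.

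**Figure D2:**
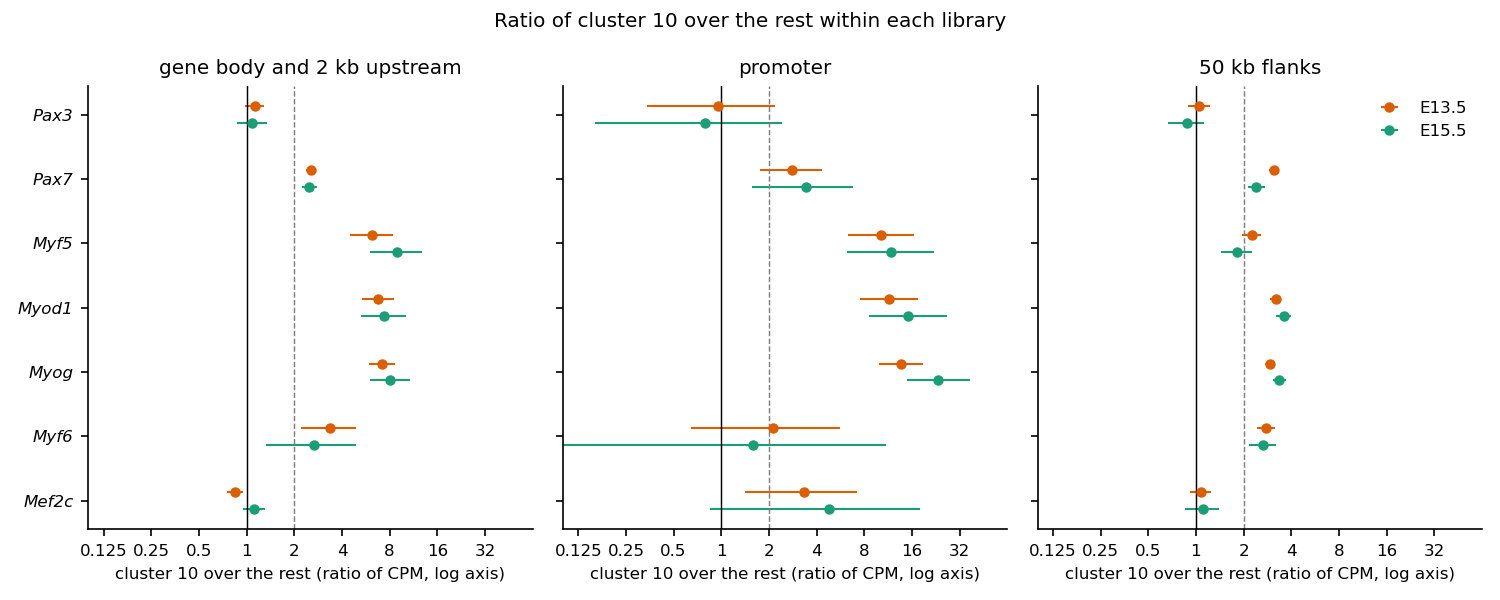
Ratio of CPM in cluster 10 over the rest (horizontal log axis) for each gene in the 3 windows, at E13.5 (orange) and E15.5 (green), with exact 95% intervals. The solid line is a ratio of 1 and the dashed line 2. Promoter ratios of Myf5, Myod1 and Myog lie between 10.2 and 23.3, and the Pax3 ratios lie between 0.795 and 1.13. The E15.5 interval of the Myf6 promoter runs past the left edge.

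Across windows, 5 of 7 promoters were at least 2-fold higher in both libraries when no minimum was set, beside 2.37% of 20696 genes. The 5 were Myod1, Myog, Myf5, Pax7 and Mef2c, and no member promoter had 100 fragments in each library. With every annotated start the count was 4, without Mef2c. In the flanks the count was 4 of 7 (Myod1, Myog, Myf6 and Pax7), beside 0.473% of 20915 genes. With other protein-coding genes removed from the flanks it was 3, since Myf6 was then at 1.65 at E15.5. By point value the promoter ratio exceeded the body ratio for Myod1, Myog, Myf5, Pax7 and Mef2c in both libraries and was below it for Pax3 and Myf6. Only for Myog did the promoter and body intervals lie apart in both libraries, and the body window contains the promoter.

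The E12.5 library had only 2 nuclei of cluster 10, and its values are given for completeness. Myod1 had 16 body fragments there, 20.5 times the rest (10.7 to 37.6), but all 16 came from 1 nucleus and lay between 226 and 1848 bp after the start, and 6 positions were the end of a fragment and the start of another. These fragments are not independent, so the interval is too narrow, and the promoter had 0 fragments. Pax3 had 35 fragments, 3.49 times the rest (2.41 to 4.92), also all from 1 nucleus. Pax7 had 12 and 8 fragments in the 2 nuclei, 1.33 times the rest (0.808 to 2.07). Myog, Myf5 and Myf6 had 1 fragment each, and Mef2c had 8, all from 1 nucleus. Among the other clusters with at least 5 nuclei at E12.5, the neuron-like cluster 6 had the highest level in each window of Myod1, whose flanks also hold Kcnc1. How the fragments of cluster 6 were spread over its nuclei was not examined. Its 5 nuclei gave 11 body fragments or 40.3 CPM (20.1 to 72.2), 6 promoter fragments or 22.003 CPM (8.07 to 47.9) and 66 flank fragments or 242.03 CPM (187.2 to 307.9), and only for the flanks did it stand apart from all other clusters, since clusters 1, 5 and 7 had no promoter fragment but limits of up to 10.7, 9.48 and 15.02 CPM.

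Regions open in cluster 10 were then sought over the body and flanks of each gene. A 500 bp bin was chosen if it held at least 10 insertions in cluster 10 at E13.5, at 4 or more times the IPM of the rest, and was then read at E15.5. The 7 loci held 312 bins with at least 10 insertions, and 172 of them (55.1%) were chosen, where 24.3% of such bins in the genome were. They formed 93 separate stretches, and 13 were classed as promoter bins, within 1000 bp of a start. At E15.5, 98 of the 172 (56.98%) again had a ratio of at least 4, beside 29.1% of the 43011 bins chosen in the genome. The median ratio at E15.5 was 5.29 at the 7 loci and 1.75 in the genome. At E13.5, where the choice set every ratio at 4 or more, the medians were 6.61 and 5.79. The clusters were made over nuclei of all libraries, so E15.5 is a separate library but not a separate clustering. The chosen bins rested on 2 to 32 nuclei of cluster 10 (median 7), with 3 bins on fewer than 3 nuclei. The bin just inside the threshold had a ratio of 4.09 at E13.5 and 1.85 at E15.5, and that just outside 3.99 and 5.96.

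The loci differed in how many bins recurred. For Myod1, 29 of 36 chosen bins had a ratio of at least 4 at E15.5 and the median ratio there was 12.99. For Myog it was 29 of 45, with a median of 6.50. All 6 Myf5 bins recurred, and they form 1 stretch from -2.12 to 0.383 kb. Of the Myf6 bins 5 of 7 did, of those of Pax7 28 of 72, of Mef2c 1 of 4, and of Pax3 0 of 2. The only recurring Mef2c bin was that of its first exon. The highest of the chosen Pax3 bins, in an intron, had 10 insertions from 4 nuclei at E13.5 and 2 from 1 nucleus at E15.5. Pax7 had the most chosen bins, 70 of them outside promoters, in a locus of 398 bins against 211 each for Myod1 and Myog. Of bins with at least 10 insertions, 51.1% were chosen at Pax7, 73.5% at Myod1 and 57.0% at Myog. The median ratio of the chosen Pax7 bins at E15.5 was 2.60, beside 5.52 at E13.5, where they were chosen at 4 or more. When bins were chosen at E15.5 instead, 72 were found, of which 79.2% had a ratio of at least 4 at E13.5, beside 37.0% in the genome. The 2 choices shared 55 bins, 76.4% of those from E15.5 and 31.98% of those from E13.5.

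**Figure D3:**
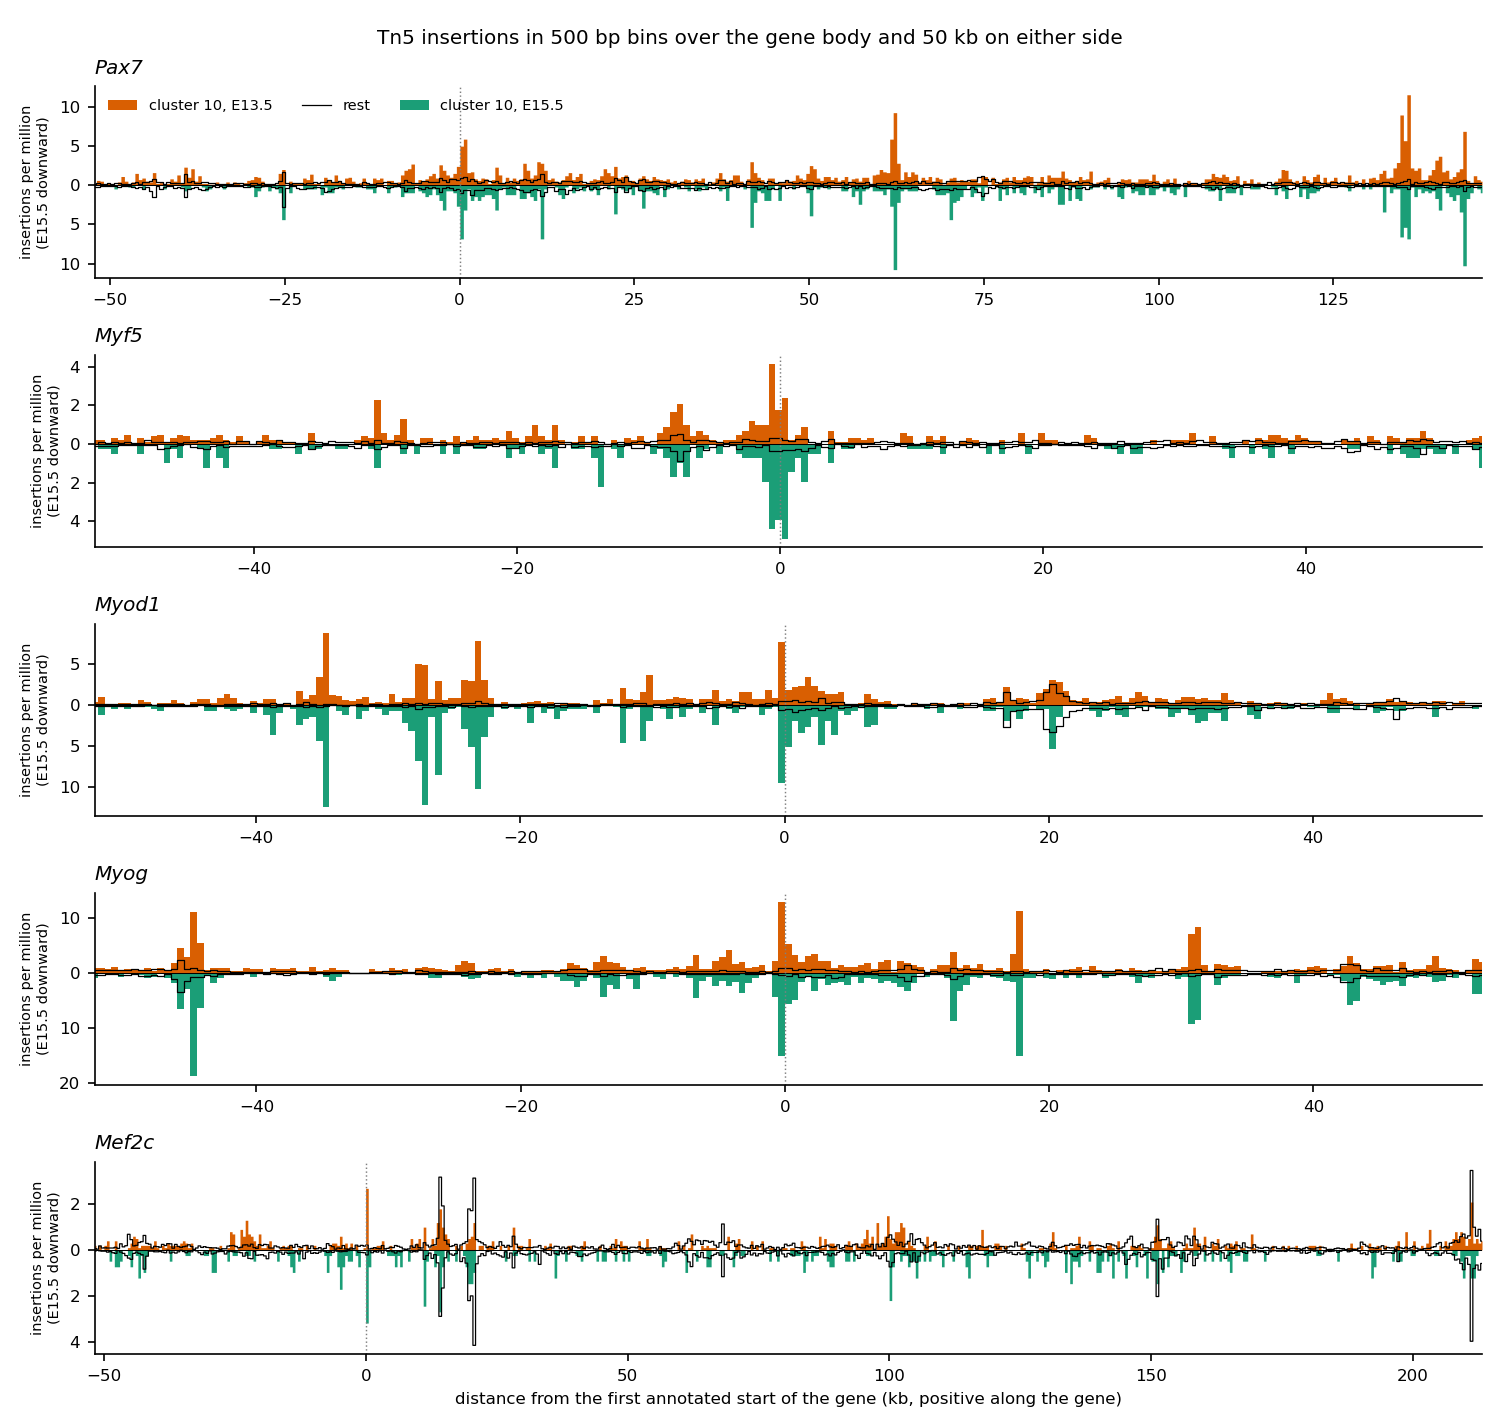
Tn5 insertions in 500 bp bins as IPM (vertical axis) against distance from the first annotated start (horizontal axis, kb) for 5 of the genes, with E13.5 upward in orange and E15.5 downward in green for cluster 10 and black outlines for the rest. At Myod1 the point values of the bins at -34.7, -27.2 and -23.2 kb pass that of the promoter at E15.5, drawn without intervals. At Mef2c the outline of the rest has its highest peaks away from the first start, where cluster 10 reaches 2.68 and 3.18 IPM.

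**Figure D4:**
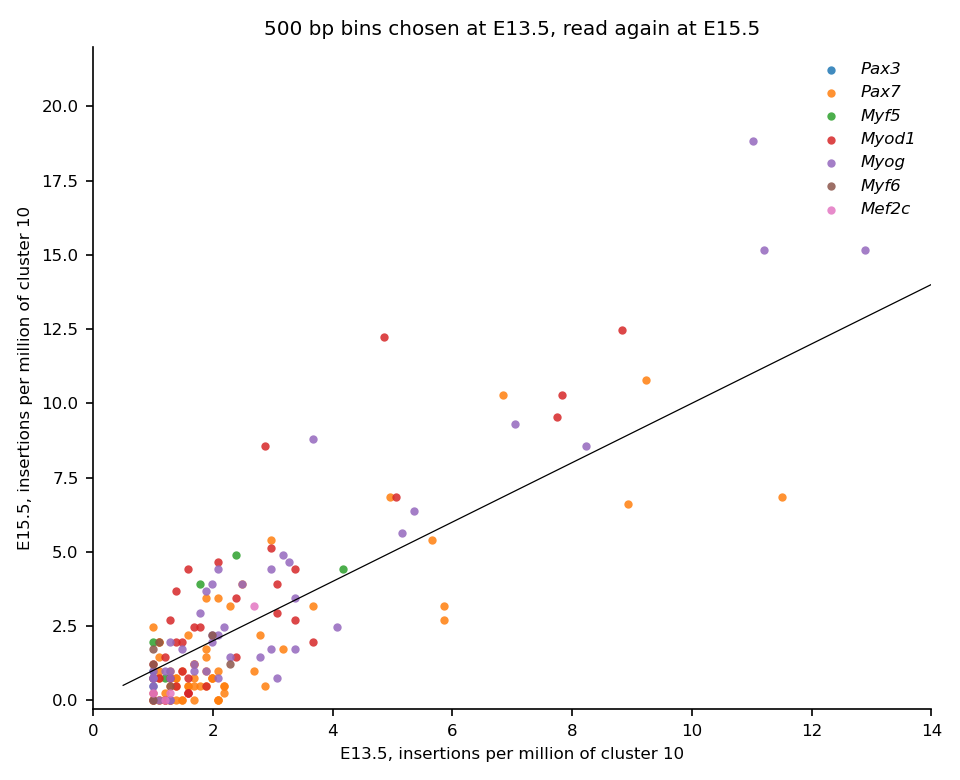
IPM in cluster 10 at E13.5 (horizontal axis) and at E15.5 (vertical axis) for the 172 bins chosen at E13.5, each dot a bin coloured by gene, with the line of equal values. The 3 highest bins at E15.5 belong to Myog, at 15.2 to 18.8 IPM.

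The 6 printed sequences were searched on both strands for the E-box CAGCTG, which reads the same on both strands. They were also searched for CAGGTG, which the opposite strand spells CACCTG, and for the MEF2 motif. The latter was taken as YTAWWWWTAR, where Y is C or T, W is A or T and R is A or G. CAGCTG and CAGGTG are E-boxes bound by myogenic factors and their partners. Of the 6, 5 hold CAGCTG (3 matches in the Ppfia4 intron, 2 upstream of Myf6), the Myf5 region holds CAGGTG but not CAGCTG, and none holds this MEF2 pattern. The Myog promoter window stops short of the start of the gene. The bases that follow it hold CTATATTTAT, which misses the pattern only at its last base. Sites outside the windows or off this pattern are therefore not covered. The printed windows are the densest 300 bases of each bin. Of all 10 regions named by rule at the 7 genes, 7 hold CAGCTG and none the MEF2 motif, and the highest Pax3 region and the highest Myf5 region outside promoters hold neither E-box. Over the central 300 bases of the chosen bins, CAGCTG occurred in 27.3% at the 7 loci and 27.9% in the genome. It occurred in 15.3% of bins that were open in cluster 10 but below the rest, and in 10.6% of 26451 windows of this length spaced 100 kb apart. For CAGGTG the shares were 26.2%, 25.6%, 22.1% and 17.1%. For the MEF2 motif they were 1.74%, 3.88%, 1.65% and 6.88%. The wider pattern CANNTG, which includes both E-boxes, was in 83.1% of bins at the 7 loci, 86.5% of those in the genome, 67.1% of bins below the rest and 79.5% of the spaced windows. A match is a run of letters and was not tested for binding.

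Every nucleus of cluster 10 had a fragment over the long Pax7 body, 49 of 49 at E13.5 and 24 of 24 at E15.5, but the short promoters gave a fragment in only some nuclei. At E13.5, 33 of 49 (67.3%, exact Clopper-Pearson 95% interval 52.5 to 80.1%) had a fragment in the Myog promoter, 22 (44.9%, 30.7 to 59.8%) in that of Myod1, 20 (40.8%, 27.0 to 55.8%) in that of Myf5, 15 (30.6%) in that of Pax7, 8 (16.3%) in that of Mef2c, 6 (12.2%) in that of Pax3 and 4 (8.16%) in that of Myf6. In the erythroid-like cluster 5, which should lack the 4 myogenic regulatory factors, the promoter shares of the 7 genes were between 1.20% and 4.22% of 166 nuclei, at a median of 62521 fragments. Cluster 5 is no reference for Mef2c, which had 100.5 CPM over its body there at E13.5. The Pax3 share in cluster 10 was close to the 12.8% of cluster 1 and the 12% of cluster 9, while for Pax7 these clusters had 14.4% and 12%. At E15.5 the order was the same for the first 3, with 16, 12 and 11 of 24 nuclei, and cluster 5 had no promoter fragment of the 7 genes in 10 nuclei (0%, exact interval up to 30.8%), at a median of 34051.5 fragments. Nuclei were also thinned to 10000 fragments by 1 random draw, so counts this small carry the error of that draw. Thinned in this way, Myog was at 9 of 49 and 5 of 24 nuclei and Myod1 at 3 of 49 and 1 of 24. Myf5 was at 3 of 49 and 0 of 24, Pax7 at 0 of 49 and 1 of 24 and Pax3 at 0 in both. In cluster 5 Myog and Myod1 were each at 1 of 160 at E13.5, and in cluster 1 Pax7 was at 3 of 124. At this depth and in this draw, Myog was the only promoter whose interval in cluster 10 lay apart from that of cluster 9 at E13.5. These intervals take the nuclei of 1 library as independent and do not describe a stage. Over the body, thinned Pax7 was at 38 of 49 nuclei (77.6%, 63.4 to 88.2%) in cluster 10 at E13.5, beside 50% (40.9 to 59.1%) in cluster 1 and 52% (37.4 to 66.3%) in cluster 9, and at 17 of 24 (70.8%, 48.9 to 87.4%) at E15.5, beside 28.2% (20.3 to 37.3%) and 42.1% (20.3 to 66.5%). At least 1 of the promoters of Myf5, Myod1, Myog and Myf6 had a fragment in 40 of 49 (81.6%) and 19 of 24 (79.2%) nuclei of cluster 10. In the mesenchyme-like cluster 1 this share was 21.6% and 10.8%, and in cluster 5 at E13.5 it was 10.2%. These shares were not thinned, and cluster 10 was deeper, with median fragments of 92857 and 84211.5 beside 64094 and 48173.5 in cluster 1.

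Within cluster 10, E15.5 was compared with E13.5. The stage and the library cannot be told apart, since each stage had 1 library. Over the body, Myf5 was higher at E15.5, at 35.5 against 20.8 CPM, a ratio of 1.70 (1.13 to 2.54). Of its 44 fragments at E15.5, 10 came from 1 nucleus, and its flanks gave 0.871 (0.677 to 1.11). Myf5 was the only 1 of 6 genes past 1.5-fold with an interval that leaves out 1. That count is near the share over all genes, 17.9% of 17494 in either direction. Mef2c was 1.33 times higher (1.10 to 1.61), under that fold. Myod1 (1.13, 0.807 to 1.56), Myog (1.06, 0.797 to 1.40), Pax3 (0.991, 0.766 to 1.27) and Pax7 (0.902, 0.800 to 1.02) had intervals that include 1, as did Myf6 (0.861, 0.406 to 1.70). No promoter (beside 8.23% of 19122 genes) and no flank (beside 15.54% of 20915) passed. Flank intervals still left out 1 for Myod1 (1.30, 1.15 to 1.46), Myog (1.17, 1.05 to 1.30) and Pax7 (0.725, 0.631 to 0.830). Promoter ratios of Myod1, Myog and Myf5 were 1.32, 1.32 and 1.32, each with an interval including 1.

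The wider muscle programme was read from 5 lists, counted over the body window beside 1.17% of genes at least 2-fold higher and 1.14% at least 2-fold lower in both libraries. Of 20 fusion and differentiation genes downstream, 14 were higher and 0 lower in both libraries, with a median log2 ratio of 1.39 at E13.5 and 1.75 at E15.5, beside -0.10 and -0.12 over all genes. All 13 markers by which cluster 10 was called muscle-like are in this list, so its count is not separate from that name, and of the other 7 genes 5 were higher (Mymx, Tnni1, Chrnd, Dok7 and Rapsn). Actc1 had the highest ratio, 10.7 (8.62 to 13.2) and 14.8 (11.04 to 19.8). Ttn, which codes for the giant spring protein of the sarcomere, was at 2.30 (2.11 to 2.49) and 4.28 (3.89 to 4.70). Neb, the thin filament ruler nebulin, was at 1.38 and 2.46, and Ryr1, the calcium release channel of muscle, was lowest at E13.5 with 1.19 (1.10 to 1.29), but at 2.56 (2.33 to 2.80) at E15.5.

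Of 12 upstream factors, 5 were at least 2-fold higher in both libraries (for example, Msc and Met), and the median log2 ratios were 0.99 and 0.97. Msc, a bHLH factor of head muscle also called musculin, was highest at 3.80 (2.77 to 5.14) and 4.18 (2.92 to 5.85). Met, the receptor needed for muscle precursors to migrate into the limbs, was at 2.24 and 2.27, and Eya2, a transcriptional cofactor of early muscle progenitors, at 1.70 and 1.54. Dmrt2, which acts in the early dermomyotome, was lowest, at 1.15 (0.864 to 1.495) and 0.971 (0.609 to 1.48).

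None of the 3 other MEF2 genes and none of the 3 E proteins was 2-fold higher or lower. Mef2d was at 1.48 (1.35 to 1.62) and 1.52 (1.32 to 1.75), Mef2a at 1.03 and 1.25, and Mef2b at 0.996 and 0.826. Among the E proteins, which are partners in most tissues, Tcf12 was at 1.26 and 1.78, Tcf3 at 1.15 and 0.762, and Tcf4 at 1.11 and 1.39. Of 9 inhibitors of myogenic factors only Mstn was 2-fold higher in both, at 2.87 (2.02 to 3.99) and 3.21 (1.76 to 5.52), and it codes for myostatin, a growth inhibitor that muscle itself makes. Twist1, which binds E proteins in mesenchyme, was at 0.675 (0.480 to 0.925) and 0.333 (0.151 to 0.637), Id2 at 1.35 and 0.537, and Hey1 at 1.27 and 1.07. The median log2 ratios of the inhibitors were -0.18 and -0.37.

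**Figure D5:**
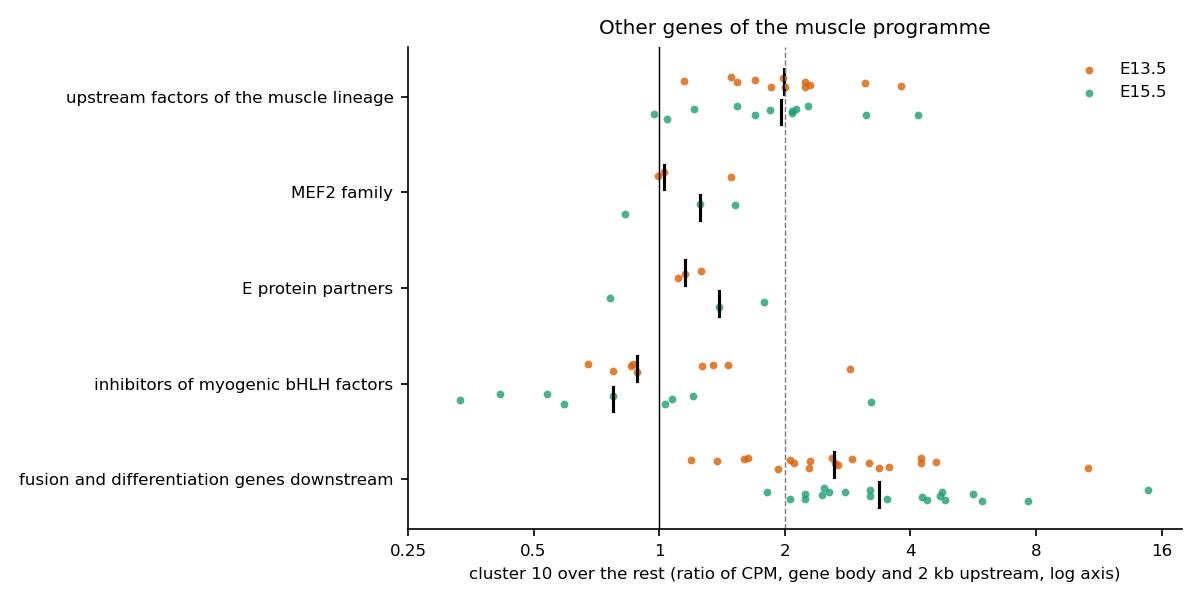
Ratio of CPM in cluster 10 over the rest (horizontal log axis, body window) for genes of 5 lists, each dot a gene at E13.5 (orange) or E15.5 (green), with the black bar the median of the list. The downstream list has the highest median in both libraries, and the MEF2 family and E proteins lie below a ratio of 2.

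Markers of other cell types were read in the same way in cluster 10. Of the skeletal muscle list without the 7 genes, 9 of 13 were at least 2-fold above the rest in both libraries, with a summed level of 1257 CPM against 620.5 CPM at E13.5 and 1903 against 581.1 CPM at E15.5. None of the heart muscle (7 genes), mesenchyme (8), neuron (6), neural progenitor (7), erythroid (6), endothelial (6), white blood cell (5), epithelial (6), cartilage (5) or liver (5) genes past the minimum was so in both libraries, and 1 of 5 Schwann cell and neural crest genes was (Erbb3). In 1 library only, Myh6 (2.52), Dcx (2.32) and Trp63 (2.17) passed 2-fold at E13.5, and Nes (2.46) and Itgam (2.23) at E15.5. The heart muscle list had median log2 ratios of 0.48 and 0.17, with summed levels of 229.1 against 191.9 CPM and 217.8 against 194.3 CPM. The neural progenitor list, whose cells can use Pax3 and Pax7, summed to 369.3 against 330.995 CPM and 374.2 against 344.2 CPM, and 2 of its 7 genes were at least 2-fold lower in both libraries. Its median log2 ratios were -0.38 and -0.84, with Notch1 and Nes above the rest and the other 5 below in both libraries. The summed mesenchyme level was 357.7 against 421.1 CPM at E13.5 and 344.4 against 475.2 CPM at E15.5. Whether other cell types add to the levels of Pax3, Pax7 or Mef2c in cluster 10 was not tested.

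The genes with the most similar pattern were found from Pearson's r of log2(CPM + 1) over the body, across 24 combinations of cluster and library with at least 10 nuclei. Only genes with at least 100 fragments in each of E13.5 and E15.5, on another chromosome or at least 500 kb away, could be named. The 24 points share libraries and depth, and r is only a description. Closest to Myod1 were Chrnd (r = 0.865), the delta subunit of the fetal acetylcholine receptor of muscle, Psapl1 (0.860) and Lrit3 (0.858). Closest to Myog were Zfp251 (0.817), the lens and muscle factor Pitx3 (0.815) and Zfp568 (0.813). Myf5 came closest to Sytl2 (0.840), the muscle tropomyosin gene Tpm2 (0.810) and Disp1 (0.802), and Myf6 to Adamts5 (0.853), Nbl1 (0.846) and Ccdc158 (0.841). Pax3 was closest to Tpbg (0.950), Barhl2 (0.948) and Pknox2 (0.943), Pax7 to Lmf1 (0.943), Dcdc2c (0.940) and Lypd6 (0.933), and Mef2c to Ccdc28b (0.950), Nin (0.936) and Jmjd1c (0.934). Among the 7 genes r was highest for Pax3 with Pax7 (0.738) and lowest for Myog with Mef2c (0.172), and Myod1 with Myog gave 0.655. Of these 21 neighbours, 11 were kept with a pseudocount of 0.1 and 4 with Spearman's rho.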

How the data were processed

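The 3 fragment files were deposited by the authors with a count of read pairs beside each unique fragment, and per the file headers they were made with Cell Ranger ATAC 2.0.0 against mm10, with fragment ends at the Tn5 insertion and duplicates collapsed. The labels also name Seurat 4.1.0 and Signac 1.6.0. In the study's methods, nuclei were joined to the spatial profiles through Seurat anchors in a reciprocal LSI space and then corrected with Harmony by sample. The sources used here do not say if this joining produced the numbers in the cell table, and give no clustering resolution for it. Of the deposited cell table, 20 columns were not used. Fragments on chromosomes 1 to 19, X and Y were counted per nucleus in windows of GENCODE vM21 genes, leaving out Pcdh and Ugt genes (91) and spans over 500 kb (228). Doublets were not removed. Barcodes sharing at least 10 percent of fragments were called linked. Levels have exact Poisson intervals, ratios exact conditional binomial intervals and shares Clopper-Pearson intervals. With 1 library per stage no test was run and no p-value is given. Sequences were read by coordinates from the RefSeq copy of GRCm38.p6, the assembly of mm10. The genes, lists, thresholds and alternatives were chosen with earlier results of these data known, and genes named from lists were the highest, the lowest and up to 2 more with the most fragments at E13.5. Regions named by rule came from the chosen bins of each gene, so bins also open in other clusters could not be named. They were those with the most insertions in cluster 10 at E13.5, overall and outside promoters and exons. The values of 1 listed gene are not reported here. Counting and ratios were tested on simulated data. Python 3.11.15, numpy 2.4.6, pandas 2.3.3, SciPy 1.17.1 and pysam 0.24.0 were used.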

Additional observations from a re-analysis of the deposited data

Results flagged for a closer look

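Mef2c over its body lay below the rest at E13.5 and above it at E15.5, and the E15.5 ratio was 1.32 times the E13.5 ratio. The flanks of Pax3 lay above the rest at E13.5 and below it at E15.5, at 0.839 times. These differences between libraries were not tested, and of the 4 ratios involved only that of Mef2c at E13.5 had an interval without 1.

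The shallow clusters 2 and 4, left out of the comparisons, held fragments of the 7 genes, 85 in the E12.5 library, 295 in the E13.5 library and 161 in the E15.5 library, above the limit of 3 counts. Most were of Pax3, Pax7 and Mef2c. For Pax7 the E13.5 level was 144.5 CPM (119.7 to 172.9) beside 132.3 CPM in the rest. The E15.5 level was 205.5 CPM (168.4 to 248.3) beside 122.4 CPM. Pax3 and Mef2c lay below the rest at E15.5, at 9.60 CPM (3.12 to 22.4) beside 66.3 CPM and at 80.7 CPM (58.1 to 109.04) beside 123.1 CPM. For Myod1 these clusters gave 1 and 3 fragments, or 1.21 and 5.76 CPM.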

How the results depend on the processing

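No paired analysis was possible because each stage had 1 library. Under 8 alternatives in the choice of nuclei, clusters, weights, scaling and fragment length, the count of genes at least 2-fold higher in cluster 10 stayed at 4 or 5 for the body and flanks and at 5 for the promoter. The body count was 4 without the deepest 10 percent of nuclei, where Myf6 at E15.5 was at 1.26. Without other protein-coding genes the flank count was 3, since Myf6 at E15.5 was at 1.65. Asking for 2-fold at E12.5 as well left 3 genes for the body, 2 for the promoter and 1 for the flanks, and a fold of 4 left 3, 3 and 0. At E12.5 the body genes were Myod1, with 16 fragments all from 1 nucleus, and Myf5 and Myf6, with 1 fragment each. The Myog promoter also rested on 1 fragment there, so these counts do not add a library. With every annotated start the Mef2c promoter ratio turned to 0.593 at E13.5 and was 0.652 at E15.5, and the promoter count was 4. Of 406 single ratios under alternatives, 351 stayed within the interval of the main value, 54 moved outside it and 1, the Mef2c promoter at E13.5, crossed 1 although its main interval left out 1. Ratios whose main interval includes 1, such as that promoter at E15.5 and the Mef2c flanks at E15.5 (0.857 without the deepest 10 percent of nuclei), could cross 1 and were not counted as turned. Between stages, dropping the minimum fold gave 2 genes for the body and 3 for the flanks, leaving out the deepest 10 percent of nuclei gave 1 promoter and 1 flank, and scaling to promoter fragments gave 1 flank. Regions numbered 73 with at least 20 insertions, 273 at a ratio of 2, 63 at a ratio of 8 and 72 when chosen at E15.5. Of the 21 most similar genes, 11 were shared with a pseudocount of 0.1 and 4 with Spearman's rho. The highest cluster was not asked at E12.5, where cluster 10 had fewer than 5 nuclei. Without the E13.5 or the E15.5 library the counts of genes higher in cluster 10 stayed within 1.5 times. The cause of these shifts was not tested.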
